A study of Rattus norvegicus with 56 samples.

Results

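MiR-142-3p, miR-142-5p, miR-223-3p and miR-150-5p are microRNAs of white blood cells. They were taken by name from tables of mature rat microRNAs, and all 4 were listed in every one of the 5 tables, out of 682 microRNAs listed in any of them. Small RNA was sequenced from myocardium, amniotic fluid and maternal serum of Sprague-Dawley rats on embryonic day 19, in 56 samples. In the DMO groups the dams had received repeated oral doses of dimethadione (DMO), an agent that gives a ventricular septal defect (VSD) in part of the fetuses, and the dams of the NC group had received distilled water on the same schedule. Among the fetuses of treated dams, those whose septum was defective but whose great vessels were normal are called VSD here, and those whose septum had closed are called non-VSD. Each group had 7 samples: NC, non-VSD and VSD for the myocardium and for amniotic fluid, and NC and VSD for maternal serum, the VSD sera being from treated dams. Both DMO groups had thus met the drug, and they were compared with the same NC samples. The dam of each fetus was not named, so p-values measure the spread between samples, some of which may be littermates.

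MiR-142 is made in nearly all blood-forming lineages, and its hairpin gives a product from each arm, miR-142-5p and miR-142-3p. MiR-223 marks the myeloid lineage, neutrophils and platelets above all, and miR-150 is abundant in mature lymphocytes. In a fetal organ or a body fluid, such microRNAs come largely with the blood cells, or the particles shed by blood cells, that the sample holds. Red blood cells carry other microRNAs, with miR-451, miR-144 and miR-486 among the most abundant. In bulk RNA, fewer cells of a type and less RNA per cell cannot be told apart.

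The mature sequences are shown because the counts rest on telling these short molecules apart, and because the arms of miR-142 behaved differently in different tissues. RefSeq (GRCr8) held 3 of the 4 members, and miR-150-5p is given here by name only. Capitals mark the seed, bases 2 to 8, which pairs with target transcripts.
miR-142-5p: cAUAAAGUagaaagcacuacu
miR-142-3p: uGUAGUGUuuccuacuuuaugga
miR-223-3p: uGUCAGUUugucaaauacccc
MiR-142-5p lies at chr10:73055119-73055139 and miR-142-3p at chr10:73055155-73055177, both on the plus strand in the gene Mir142. MiR-223-3p lies at chrX:65151450-65151470 on the plus strand in the gene Mir223. None of these 3 seeds was shared with another of the 693 mature microRNAs in the reference table. The longest run of bases that any of the 3 shared with another of them was 8. The reference lacked some counted microRNAs, such as miR-150-5p, so the check did not cover every microRNA counted. Both arms of miR-142 are cut from 1 precursor, 87 bases long, with 15 bases of loop between them. It lies at chr10:73055104-73055190 on the plus strand, and the arms are in capitals.
Mir142 hairpin: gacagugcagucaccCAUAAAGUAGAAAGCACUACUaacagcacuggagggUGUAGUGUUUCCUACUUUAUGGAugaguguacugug

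Libraries held 1694811 to 9371130 counts in the myocardium, 78188 to 331787 in amniotic fluid and 147609 to 581350 in maternal serum. A count of 0 allowed a level (3 counts) of up to 1.59, 40.8 and 17.8 CPM (counts per 1000000, scaled by TMM) in the library of each where that limit was highest, for counting error only. The myocardium libraries held heart microRNAs (miR-1-3p, miR-133a-3p, miR-208a-3p, miR-208b-3p and miR-499-5p), at a median of 3.12%, 3.82% and 2.38% of counts in the NC, non-VSD and VSD groups. In 3 myocardium libraries these 5 microRNAs summed to less than 10000 CPM, namely NC replicate 2 and VSD replicates 1 and 4. The same libraries held the 3 highest sums of 5 epithelial microRNAs (miR-200a-3p, miR-200b-3p, miR-200c-3p, miR-203a-3p and miR-205), at 11886, 12748 and 9910 CPM in that order, and the next highest was 9012 CPM in VSD replicate 5. Calls of members in the myocardium are therefore also given without these 3 libraries, a choice made after their values were seen. Ratios, correlations and differences between tissues are not given without the 3 together. Levels are not compared between amniotic fluid and the other samples as amounts, since amniotic fluid had its own library kit and sequencer.

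In the myocardium of NC fetuses, both arms of miR-142 were the most abundant of the 4 members and also the most variable. MiR-142-3p was at 909 ± 729 CPM (SD, 7 samples) and miR-142-5p at 943 ± 655 CPM (SD, 7 samples), ranking 83rd and 80th of the 661 microRNAs listed. MiR-150-5p was at 184 ± 37.0 CPM (SD, 7 samples) and miR-223-3p at 35.1 ± 5.28 CPM (SD, 7 samples), ranking 162nd and 275th. The coefficient of variation among NC fetuses was 80.2% and 69.5% for the arms of miR-142, against 20.2% for miR-150-5p and 15.02% for miR-223-3p. The ranges of the arms overlapped each other almost wholly, whereas all NC values of miR-223-3p lay below all those of miR-150-5p.

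In amniotic fluid of the NC group, miR-142-3p was at 1287 ± 1498 CPM (SD, 7 samples), miR-223-3p at 1019 ± 819 CPM (SD, 7 samples) and miR-150-5p at 749 ± 443 CPM (SD, 7 samples). The ranges of these 3 overlapped, so no order among them held beyond the spread. MiR-142-5p was listed with 42 counts over the 7 libraries, and at 0 in 3 of them. Its mean level was 51.2 ± 66.8 CPM (SD, 7 samples), close to the limit that a count of 0 allows.

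Maternal serum held the members in a different order. MiR-223-3p was at 36637 ± 10971 CPM (SD, 7 samples) in the NC group and ranked 4th of 518 microRNAs, with no sample below 22178 CPM. MiR-150-5p followed at 9832 ± 2041 CPM (SD, 7 samples) and miR-142-5p at 6020 ± 2141 CPM (SD, 7 samples). MiR-142-3p was at 383 ± 200 CPM (SD, 7 samples), below every value of the other 3. The values of miR-150-5p and miR-142-5p overlapped, so their order was within the spread, while both lay wholly below miR-223-3p. The 4 members together made up a median of 5.18% of the counts in NC serum and of 0.125% in the NC myocardium, which shared the library kit.

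**Figure D1:**
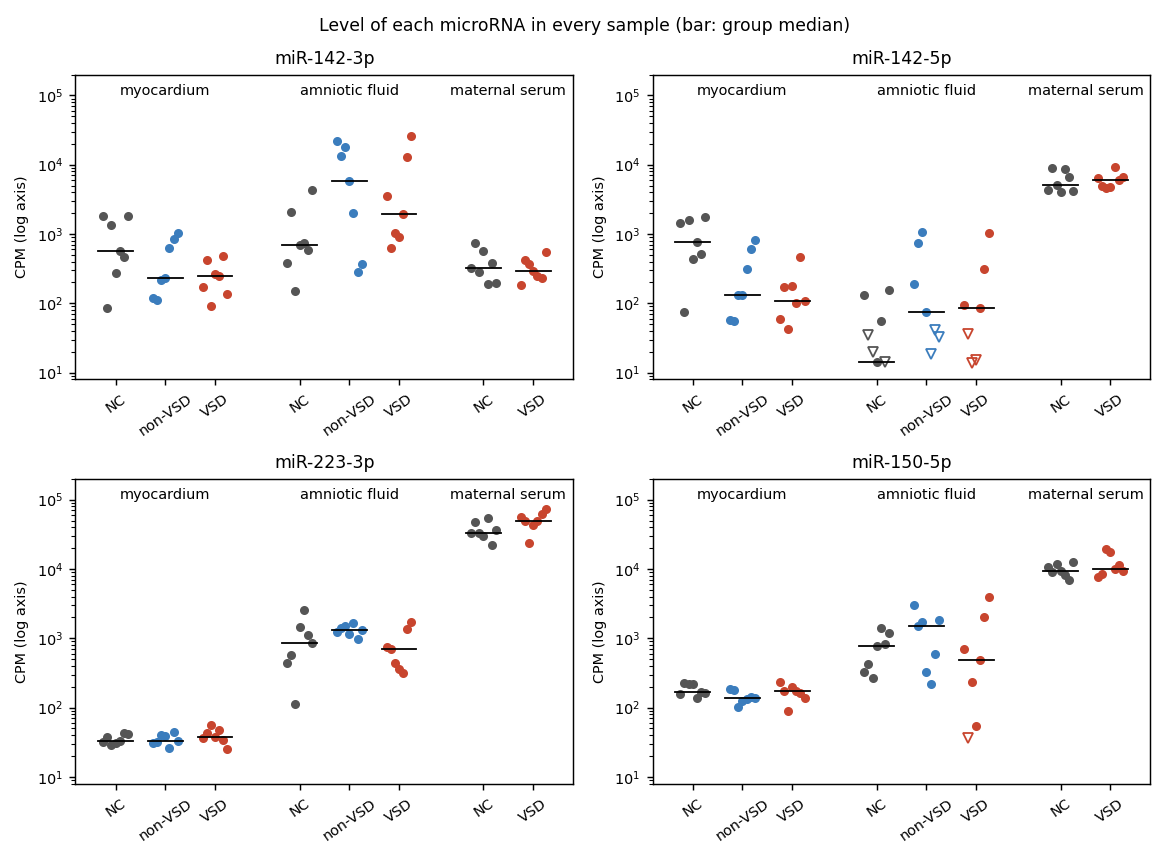
Level in CPM (log axis) of each of the 4 microRNAs in all 56 samples, by tissue and group; dots are samples, bars are group medians, and open triangles are samples with 0 counts, drawn at the level that a count of 0 allows. In the myocardium the VSD values of both miR-142 arms lie below the NC median, while the medians of miR-223-3p lie between 32.4 and 38.0 CPM and those of miR-150-5p between 136 and 173 CPM, and in serum miR-223-3p is the highest of the 4.

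The arms of miR-142 were present in different proportions in each tissue. In the NC myocardium, miR-142-3p made up 50.2% of the counts of both arms, with 39.3% to 56.1% in single samples. In NC amniotic fluid it made up 96.0%, with 74.1% to 100% in single samples. In NC maternal serum it made up 5.98%, with 2.15% to 12.3% in single samples. No sample of the 3 NC groups overlapped with those of another tissue. Myocardium and serum shared the library kit and the sequencer but not the extraction, and amniotic fluid differed in all of these, so the tissue and the method cannot be told apart.

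The comparison of VSD with NC myocardium asked which members differed in the defective heart. A DE-microRNA needed a raw p below 0.05 and a difference of at least 2-fold in either direction, and 469 microRNAs were tested by edgeR's quasi-likelihood test. Both arms of miR-142 met this threshold as lower, 2 of the 4 members, against 4.26% of all microRNAs tested that were called lower. MiR-142-5p ranged from 74.7 to 1767 CPM in the NC group (median 777) and from 42.0 to 462 CPM in the VSD group (median 109). All 7 VSD samples lay below the NC median and 2 lay below every NC sample, but the ranges overlapped through NC replicate 2, the lowest of its group, and VSD replicate 6, the highest of its own. The log2 fold change was -2.55 (standard error 0.63, Benjamini-Hochberg adjusted p = 0.0645), 5.87-fold lower in the VSD group. MiR-142-3p ranged from 84.1 to 1827 CPM in the NC group (median 576) and from 91.4 to 482 CPM in the VSD group (median 249). All 7 VSD samples were below the NC median, yet none was below the lowest NC sample, again replicate 2. The fitted log2 fold change was -1.81 (standard error 0.58, adjusted p = 0.0997), 3.51-fold lower.

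Neither of the other members met the threshold in the VSD myocardium. MiR-223-3p, the myeloid microRNA, ranged from 28.8 to 42.6 CPM in the NC group (median 32.4) and from 25.2 to 55.3 CPM in the VSD group (median 38.0), and its log2 fold change was 0.18 (95% interval -0.23 to 0.58, adjusted p = 0.616). MiR-150-5p, the lymphocyte microRNA, ranged from 138 to 230 CPM in the NC group (median 166) and from 89.8 to 234 CPM in the VSD group (median 173), with a log2 fold change of -0.14 (95% interval -0.60 to 0.31, adjusted p = 0.727). Both intervals, with TMM, lay within a factor of 2. Both values depended on the scaling. Library size in place of TMM moved the median log2 change of all tested microRNAs from -0.05 to 0.32. With it miR-223-3p was at 0.55, and miR-150-5p turned its sign to 0.27.

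No member passed an adjusted p below 0.05 in the VSD myocardium by edgeR, where 2 of the 4 had a raw p below 0.05 and 0.426% of all microRNAs passed the adjusted threshold. DESeq2 called the same number at the DE-microRNA threshold, 2, and limma 1. Leaving out 1 of the 14 libraries at a time, the log2 fold change of miR-142-5p lay between -3.15 and -2.40, with an adjusted p of 0.00560 to 0.155, under 0.05 without NC replicate 2 or VSD replicate 6. That of miR-142-3p lay between -2.09 and -1.62, with an adjusted p of 0.0163 to 0.181, under 0.05 without NC replicate 2. Without the 3 libraries low in heart microRNAs, 2 members met the threshold, miR-142-5p at -2.65 (adjusted p = 0.0466) and miR-142-3p at -1.96 (adjusted p = 0.0833). Leaving out any 1 library kept the count at 2.

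The non-VSD myocardium, from fetuses exposed to DMO with an intact septum, was set against the same NC samples. MiR-142-5p was the only member to meet the threshold, as lower, 1 of 4 against 2.41% of the 456 microRNAs tested. It ranged from 54.7 to 829.1 CPM (median 133), with 6 of 7 samples under the NC median and 2 under every NC sample, and the ranges overlapped. The log2 fold change was -1.58 (standard error 0.69, adjusted p = 0.238). The call was lost without any 1 of 8 libraries, non-VSD replicates 1 to 5 and NC replicates 1, 3 and 7, where the log2 fold change lay between -1.61 and -1.38, and it held without the 3 libraries low in heart microRNAs (-1.78, adjusted p = 0.103). MiR-142-3p ranged from 111 to 1034 CPM (median 231), with 4 of 7 samples under the NC median, and its log2 fold change of -0.94 (95% interval -2.32 to 0.44, adjusted p = 0.537) did not pass.

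MiR-223-3p in the non-VSD myocardium was at 35.1 ± 6.32 CPM (SD, 7 samples), with a log2 fold change of 0.04 (95% interval -0.32 to 0.40, adjusted p = 0.938). MiR-150-5p was at 143 ± 29.5 CPM (SD, 7 samples), with 4 of 7 samples under every NC sample and a log2 fold change of -0.33 (95% interval -0.75 to 0.09, adjusted p = 0.457). At an adjusted p below 0.05 no member passed by edgeR, where 1 had a raw p below 0.05 and 0.219% of all microRNAs passed. DESeq2 called 1 member at the DE-microRNA threshold and limma 0. The VSD and non-VSD myocardium were also compared directly, in a fit of all 21 samples. No member met the threshold, 0 of 4 against 5.18% of 483 microRNAs, and no member had a raw p below 0.05. The log2 differences, VSD minus non-VSD, were -0.81 for miR-142-3p (95% interval -2.07 to 0.44) and -0.92 for miR-142-5p (95% interval -2.30 to 0.46), wide enough to hold both no difference and a difference of more than 4-fold. For miR-223-3p the difference was 0.18 (95% interval -0.19 to 0.55) and for miR-150-5p it was 0.22 (95% interval -0.20 to 0.63). None passed an adjusted p below 0.05, which 0.00% of all microRNAs did. Without VSD replicate 6, 1 member was called, miR-142-5p at -1.48 (adjusted p = 0.335). Without the 3 libraries low in heart microRNAs, 0 members were called, with miR-142-3p at -0.74 and miR-142-5p at -0.78.

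The microRNAs of red blood cells were set beside miR-142 in the myocardium. Of 5 red cell microRNAs (miR-144-3p, miR-144-5p, miR-451-5p, miR-451-3p and miR-486), all 5 met the threshold as lower in the VSD myocardium, where 4.26% of all microRNAs did, with a median log2 fold change of -2.36 against -0.05 over all 469 microRNAs tested. In the non-VSD myocardium 4 of 5 met it as lower, where 2.41% of all microRNAs did, with a median of -1.65 against -0.07 over all tested. At an adjusted p below 0.05, 0 of 5 passed in either comparison, the lowest adjusted p being 0.0569 in the VSD and 0.126 in the non-VSD myocardium. Their summed level ranged from 2652 to 91158 CPM in the NC group (median 33797), while non-VSD hearts held 3255 to 33990 CPM (median 7004) and VSD hearts 3436 to 25168 CPM (median 7523). The lowest NC sum was that of replicate 2, the library lowest in both arms of miR-142. The part of red blood cells in the results for miR-142 was not tested. With the 5 red cell microRNAs left out of the totals, the scaling and the test, miR-142-5p was at -2.64 and miR-142-3p at -1.90 in the VSD myocardium. That step changes the scaling but not the blood cells in a sample, so it does not bear on their part.

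Within groups, the arms of miR-142 also followed the red cell microRNAs from fetus to fetus. After the mean of each group was taken from log2 CPM, the microRNAs most like miR-142-3p over the 21 myocardium samples, among 479 outside the members, were miR-144-5p (Spearman's rho 0.95), miR-451-5p (0.94) and miR-144-3p (0.93). Those most like miR-142-5p were miR-144-5p (0.96), miR-3590-3p (0.95) and miR-451-5p (0.95). The sequence and locus of miR-3590-3p were not compared with those of miR-142, and sharing of reads between them was not tested. The arms of miR-142 had a rho of 0.94 with each other. Against miR-223-3p, miR-142-3p had a rho of 0.04, and against miR-150-5p it was -0.21. The microRNA most like miR-223-3p was miR-31a-3p (0.69) and that most like miR-150-5p was miR-28-3p (0.81), neither of them on the lists of blood cell microRNAs. These values are descriptions over samples that share tissue, library depth and scaling.

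**Figure D2:**
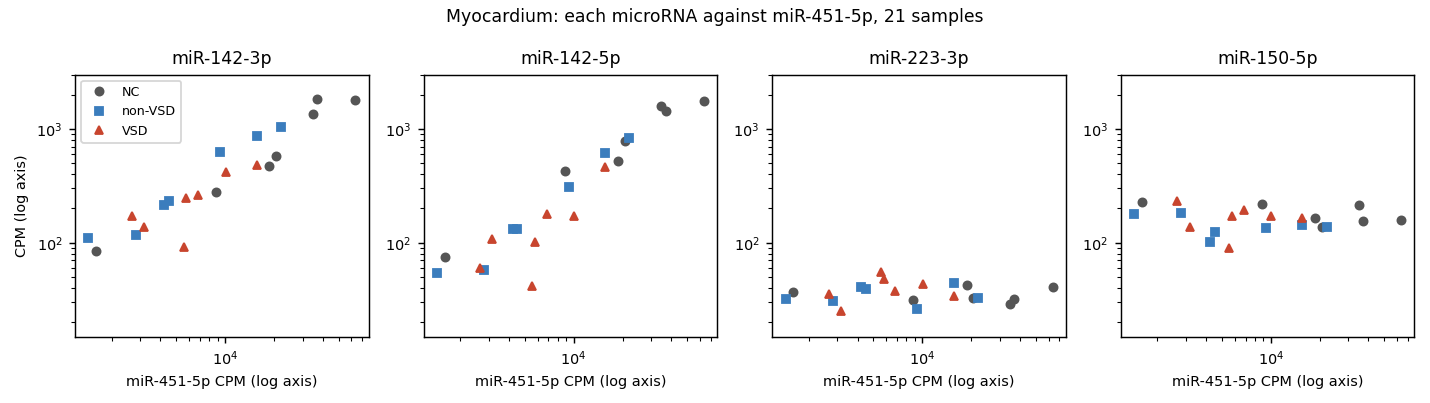
Level of each member (CPM, log axis) against that of miR-451-5p (CPM, log axis) in the 21 myocardium samples, with circles for NC, squares for non-VSD and triangles for VSD. Both arms of miR-142 climb with miR-451-5p in all 3 groups, while miR-223-3p and miR-150-5p had a rho of 0.14 and -0.36 with miR-451-5p after group means were taken off.

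Other microRNAs of white blood cells were set beside miR-142. The list held 10, of which 9 were tested in the myocardium (miR-223-5p, miR-150-3p, miR-155-5p, miR-146a-5p, miR-146b-5p, miR-342-3p, miR-342-5p, miR-511-5p, miR-511-3p and miR-147 made up the list). MiR-511-5p was not tested, being under the filter on low counts. It had 20 counts in the VSD, 17 in the non-VSD and 43 in the NC group. Its mean was 0.277, 0.452 and 1.004 CPM in that order. In 6 of 7 VSD and 5 of 7 non-VSD samples it lay below every NC sample. The counts of calls below therefore leave it out. Of the 9 tested in the VSD myocardium, 0 met the threshold as lower, where 4.26% of all microRNAs did. As higher, 1 met it, against 2.56% of all microRNAs. That one was miR-146a-5p, an inflammation-linked microRNA that restrains signalling from Toll-like receptors, with a log2 fold change of 1.09 (adjusted p = 0.00787). The median log2 fold change of the 9 was -0.06, against -0.05 over all tested, but the list was split, with 4 above and 5 below 0. Besides miR-146a-5p, a raw p below 0.05 by edgeR was reached by miR-147, miR-155-5p and miR-342-3p. Their log2 fold changes were -0.96, 0.85 and 0.56 (adjusted p = 0.0873, 0.197 and 0.164 in that order). In the non-VSD myocardium 0 of 9 met the threshold in either direction, where 4.17% of all microRNAs did, and their median was 0.07. Their log2 fold changes ran from -0.96 to 0.83, with 5 above and 4 below 0, and the lowest adjusted p by edgeR was 0.0911. MiR-146a-5p was at a mean of 233, 403 and 497 CPM in NC, non-VSD and VSD hearts. MiR-155-5p was at 69.3, 113 and 125 CPM, so higher means were not particular to the VSD group. The summed level of the list was between 1466 and 2490 CPM in the NC, between 1338 and 2419 CPM in the non-VSD and between 1432 and 2536 CPM in the VSD group, with none of the 10 at 0 in a whole group. MiR-146b-5p was the most abundant of the list in each group, at a mean of 1164, 804 and 931 CPM, so the sum says little about the others. In the non-VSD myocardium the epithelial, heart and liver microRNAs had 0 called of 5, 5 and 1, with medians of -0.26, 0.33 and -0.30. Epithelial microRNAs stood at a median log2 fold change of 1.18 in the VSD myocardium (0 of 5 called) and heart microRNAs at -0.44 (0 of 5 called), and miR-122-5p, the liver microRNA, at 0.11 (not called). The part of these cell types in the results for miR-142 was not tested beyond leaving out the 3 libraries.

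**Figure D3:**
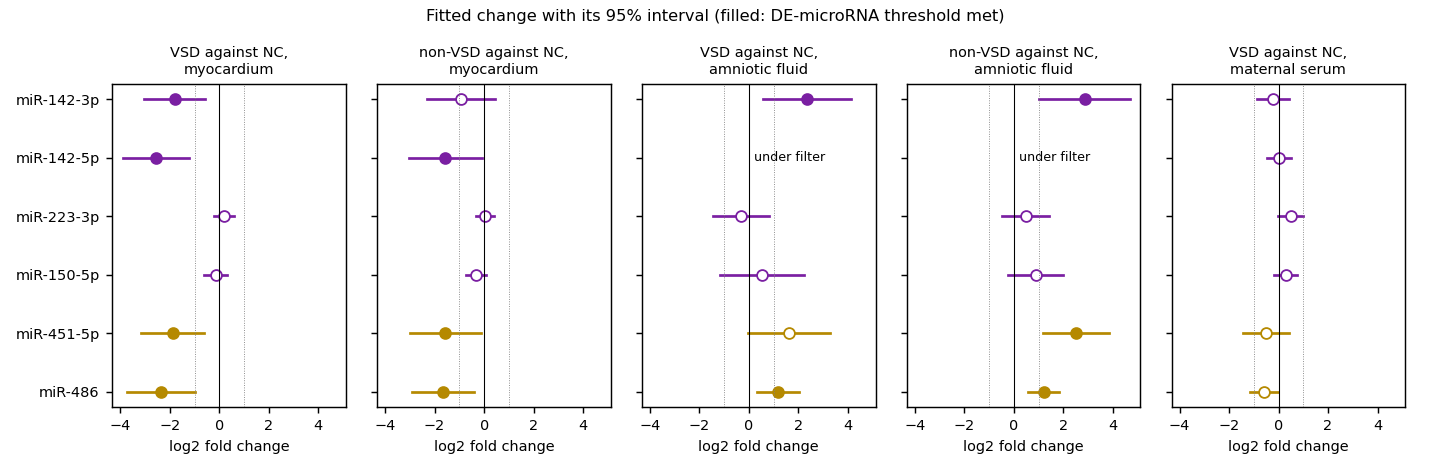
Fitted log2 fold change with its 95% interval for the 4 members (purple) and for the red cell microRNAs miR-451-5p and miR-486 (ochre) in the 5 comparisons with NC; filled points met the DE-microRNA threshold, and dotted lines mark a factor of 2. The arms of miR-142 and the red cell microRNAs lie left of 0 in the myocardium, and miR-142-3p and the red cell microRNAs lie right of 0 in amniotic fluid, whereas miR-223-3p and miR-150-5p lie within 1 of 0 throughout.

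The balance of the miR-142 arms differed from NC in both DMO myocardium groups. This ratio is taken within a library, so it does not depend on the scaling between libraries. The log2 ratio of miR-142-3p to miR-142-5p (0.5 added to each count) ranged from -0.63 to 0.36 in the NC group, from 0.32 to 1.02 in non-VSD hearts and from 0.06 to 1.502 in the VSD group. All 7 samples of each DMO group lay above the NC median of -0.15, and the highest NC samples overlapped with the lowest DMO samples. The mean was higher than NC by 1.01 in the VSD group (two-sided exact permutation test, p = 0.00291, adjusted over 20 ratios p = 0.0194). In the non-VSD group it was higher by 0.90 (two-sided exact permutation test, p = 0.00117, adjusted p = 0.0194). The share of miR-142-3p in the counts of both arms was 60.0% in the non-VSD and 62.2% in the VSD group, against 50.2% in NC. Leaving out any 1 library kept both differences under an adjusted p of 0.05, with values of 0.91 to 1.15 in the VSD group and 0.81 to 0.98 in the non-VSD group.

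The ratio was not found to differ from NC in the other samples. In amniotic fluid the mean log2 ratio was 5.31 ± 2.40 (SD, 7 samples) in NC, 6.03 ± 1.80 (SD, 7 samples) in non-VSD and 6.23 ± 1.82 (SD, 7 samples) in VSD samples, and the counts of miR-142-5p were near 0. In maternal serum it was -4.05 ± 0.82 (SD, 7 samples) in NC and -4.26 ± 0.73 (SD, 7 samples) in VSD samples, a difference of -0.21 (two-sided exact permutation test, p = 0.622, adjusted p = 0.658).

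**Figure D4:**
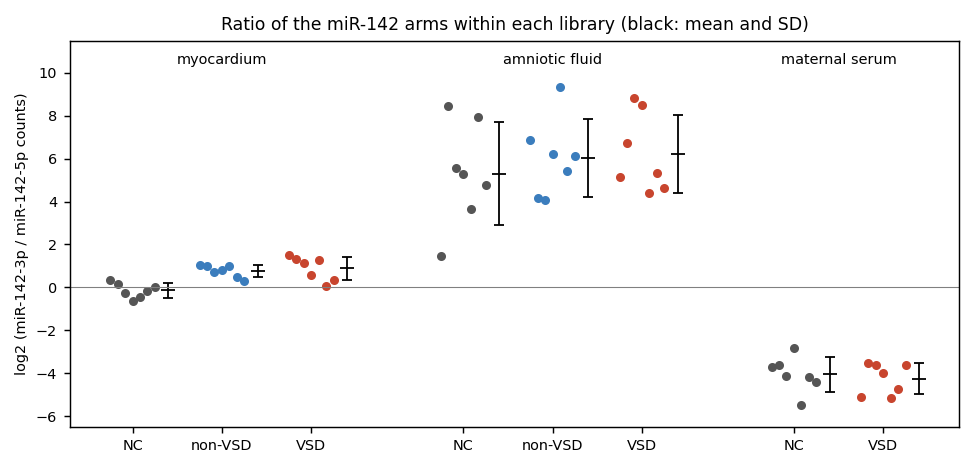
Log2 ratio of miR-142-3p to miR-142-5p counts within each of the 56 libraries, by tissue and group, with the mean and SD beside each group in black. The myocardium groups of DMO dams sit above NC by 0.90 (non-VSD) and 1.01 (VSD), and every amniotic fluid library is above 0 and every serum library below 0.

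Other ratios placed miR-142-3p beside its neighbours. The ratio of miR-142-3p to miR-451-5p in the VSD myocardium differed from NC by 0.10 on the log2 scale (two-sided exact permutation test, p = 0.742). In the non-VSD myocardium the same ratio was higher by 0.65, with all 7 samples above the NC median (two-sided exact permutation test, p = 0.00874, adjusted p = 0.0437). That call was lost without any 1 of 11 libraries (NC replicates 3 to 7 and non-VSD replicates 2 to 7), where the difference lay between 0.57 and 0.69. The ratio of miR-223-3p to miR-142-3p was higher by 1.57 in the VSD myocardium, again in 7 of 7 samples (two-sided exact permutation test, p = 0.0559, adjusted p = 0.186). Without NC replicate 2 that difference was 2.06 (adjusted p = 0.0233), and that of miR-150-5p to miR-142-3p went from 1.25 (adjusted p = 0.321) to 1.78 (adjusted p = 0.0369). In the non-VSD myocardium the ratio of miR-223-3p to miR-142-3p was higher than in NC by 0.88 (two-sided exact permutation test, p = 0.284, adjusted p = 0.474). That of miR-150-5p to miR-142-3p was higher by 0.53 there (two-sided exact permutation test, p = 0.548, adjusted p = 0.645).

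In amniotic fluid of the VSD group the members were compared with NC amniotic fluid. MiR-142-3p met the threshold as higher, 1 of the 3 members that passed the filter on low counts, against 3.67% of 245 microRNAs. It ranged from 151 to 4380 CPM in the NC group (median 692) and from 625 to 25682 CPM in the VSD group (median 1927). The NC median was passed by 6 of the 7 VSD libraries, and 2 exceeded every NC sample, replicates 6 and 7 at 12776 and 25682 CPM. The log2 fold change was 2.36 (standard error 0.85, adjusted p = 0.231). Without VSD replicate 7 it was 1.44 (adjusted p = 0.408) and no member was called, and without NC replicate 7 it was 3.21 (adjusted p = 0.176). No member passed an adjusted p below 0.05 by edgeR, where 1 of 3 had a raw p below 0.05 and 0.00% of all microRNAs passed. DESeq2 called 1 member at the DE-microRNA threshold and limma 0.

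No other member was called in VSD amniotic fluid. MiR-142-5p was under the filter, with 202 counts in the VSD against 42 in the NC group and 3 libraries at 0 in each. MiR-223-3p ranged from 112 to 2577 CPM in the NC and from 313 to 1705 CPM in the VSD group, with a log2 fold change of -0.32 (95% interval -1.44 to 0.79, adjusted p = 0.799). MiR-150-5p ranged from 270 to 1414 CPM in the NC group (median 786) and from 0 to 4007 CPM in the VSD group (median 486), where replicate 2 had a count of 0. Of the 7 VSD samples, 3 lay below and 2 above every NC sample, and 5 lay below the NC median. Its log2 fold change was 0.52 (95% interval -1.18 to 2.22, adjusted p = 0.799), and without VSD replicate 7 it was -0.35. The difference of mean log2 CPM, VSD minus NC, was -0.89, so the sign depended on the measure. Within libraries, miR-150-5p against miR-142-3p was lower by 2.93 on the log2 scale than in NC (mean -3.21 against -0.28, two-sided exact permutation test, p = 0.00233, adjusted p = 0.0194), in 7 of 7 samples. With each library left out in turn that difference stayed between -3.26 and -2.34, with an adjusted p of at most 0.0427. MiR-223-3p against miR-142-3p was lower by 1.96 in 7 of 7 samples (two-sided exact permutation test, p = 0.0303, adjusted p = 0.121), and without NC replicate 7 the difference was -2.34 (adjusted p = 0.0466). In non-VSD amniotic fluid the same 2 ratios also lay lower than in NC, each in 5 of 7 samples, and neither passed. The difference was -1.63 for miR-150-5p (two-sided exact permutation test, p = 0.157, adjusted p = 0.362) and -1.34 for miR-223-3p (same test, p = 0.245, adjusted p = 0.445).

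MiR-142-3p again met the threshold as higher in the amniotic fluid of non-VSD fetuses, 1 of the 3 members tested, against 8.68% of 242 microRNAs. It ranged from 285 to 22271 CPM (median 5773). The samples fell widely apart, with 4 above every NC sample, replicates 1 to 4, and 2 below the NC median, replicates 6 and 7. The log2 fold change was 2.86 (standard error 0.88, adjusted p = 0.0606), and with single libraries left out it lay between 2.38 and 3.67, with an adjusted p of 0.0278 to 0.120, under 0.05 without NC replicate 7 or non-VSD replicate 6 or 7. MiR-142-5p was under the filter again, with 430 counts against 42 in the NC group. All of its non-VSD counts came from replicates 1 to 4, the libraries highest in miR-142-3p, and in a fit with no filter its log2 fold change was 2.55 (standard error 1.13, adjusted p = 0.162). With that fit, or without 1 of non-VSD replicates 4 to 7, 2 or 3 members were called.

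MiR-223-3p was the steadiest member in non-VSD amniotic fluid, at 979 to 1684 CPM (median 1318). All 7 samples lay above the NC median of 862 CPM and inside the NC range, and the log2 fold change was 0.47 (95% interval -0.46 to 1.41, adjusted p = 0.634). MiR-150-5p ranged from 222 to 3036 CPM (median 1484), with 4 samples above every NC sample, and its log2 fold change was 0.89 (95% interval -0.21 to 1.99, adjusted p = 0.364). Without non-VSD replicate 4 it was 1.18 and without non-VSD replicate 5 it was 1.08, and it then met the threshold. No member passed an adjusted p below 0.05 by edgeR, where 1 of 3 had a raw p below 0.05 and 4.96% of all microRNAs passed. DESeq2 called 1 member at the DE-microRNA threshold and limma 0. Against the non-VSD group in a fit of all 21 amniotic fluid samples, the VSD group showed 0 of 4 members at the threshold, 3.30% of 273 microRNAs being called, and no member had a raw p below 0.05. The log2 differences, VSD minus non-VSD, were -0.42 for miR-142-3p (95% interval -2.24 to 1.40), -0.45 for miR-142-5p (95% interval -3.25 to 2.34), -0.72 for miR-223-3p (95% interval -1.69 to 0.26) and -0.30 for miR-150-5p (95% interval -1.90 to 1.31). At an adjusted p below 0.05 the share of all microRNAs was 0.00%. Without VSD replicate 7, 1 member was called, miR-223-3p at -1.02 (adjusted p = 0.465).

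Red cell microRNAs were set beside miR-142-3p in amniotic fluid. In the VSD group 2 of the 4 tested met the threshold as higher (miR-144-3p at 2.64 and miR-486 at 1.19), where 3.67% of all microRNAs did, with a median log2 fold change of 2.02 against -0.06 over all tested. MiR-451-5p (1.62) and miR-144-5p (2.43) did not meet it, and 0 of 4 passed an adjusted p below 0.05. In the non-VSD group 4 of 4 met the threshold, where 8.68% of all microRNAs did, with a median of 2.81 against 0.11 over all tested, and miR-451-5p (2.51) and miR-486 (1.203) passed an adjusted p below 0.05 (both 0.0272). The summed level of the 5 was between 15041 and 34832 CPM in NC, between 25426 and 86204 CPM in non-VSD and between 18134 and 143569 CPM in VSD samples, with miR-451-3p at 0 in every NC library. Of the other white blood cell microRNAs 3 were tested and 0 met the threshold in either group. The epithelial microRNAs, 0 of 5 called in either group, had medians of -0.13 and -0.14. Of the heart microRNAs 2 were tested and 0 called, with medians of 1.17 and 0.97. MiR-122-5p, the main microRNA of liver cells, met the threshold as higher in the VSD group (log2 fold change 2.998, adjusted p = 0.174) and not in the non-VSD group (0.68, adjusted p = 0.499). Its highest VSD level, 40732 CPM, was in replicate 4, where miR-142-3p was at 913 CPM, below the median of its group. The part of red blood cells in the result for miR-142-3p was not tested. With the red cell microRNAs left out of the totals, the scaling and the test, miR-142-3p was at 2.44 in the VSD and 2.99 in the non-VSD group. As in the myocardium, that step changes only the scaling and the microRNAs fitted.

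Over the 21 amniotic fluid samples, with group means taken off, miR-142-3p was most like miR-144-3p (rho 0.88), miR-144-5p (0.86) and miR-126a-3p (0.86), among 269 microRNAs. MiR-223-3p was most like miR-451-5p (0.79) and miR-150-5p most like miR-16-5p (0.80). Among the members, the rho was 0.53 between miR-142-3p and miR-223-3p and 0.64 between miR-142-3p and miR-150-5p. These are descriptions over samples of low depth that share scaling, and they were not tested against the values in the myocardium.

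Maternal serum of dams with VSD fetuses was compared with NC serum. No member met the threshold, 0 of 4 against 4.57% of 219 microRNAs in either direction, and DESeq2 and limma called 0 as well. No member had a raw p below 0.05, and 0.00% of all microRNAs passed an adjusted p below 0.05 by edgeR. MiR-223-3p ranged from 22178 to 54828 CPM in the NC group (median 33288) and from 24085 to 74071 CPM in the VSD group (median 49674), with 6 of 7 VSD sera over the NC median and 3 over every NC sample. Its log2 fold change was 0.49 (95% interval -0.01 to 0.99, adjusted p = 0.372). MiR-150-5p ranged from 6966 to 12633 CPM in the NC and from 7774 to 19198 CPM in the VSD group, with a log2 fold change of 0.28 (95% interval -0.20 to 0.76, adjusted p = 0.637).

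Neither arm of miR-142 was called in serum. MiR-142-5p was at 6020 ± 2141 CPM (SD, 7 samples) in the NC and at 6094 ± 1586 CPM (SD, 7 samples) in the VSD group, with a log2 fold change of 0.02 (95% interval -0.47 to 0.50, adjusted p = 0.974). MiR-142-3p was at 383 ± 200 CPM (SD, 7 samples) and 327 ± 125 CPM (SD, 7 samples), with a log2 fold change of -0.23 (95% interval -0.89 to 0.43, adjusted p = 0.793). Of the red cell microRNAs 2 were tested and 0 met the threshold (miR-451-5p at -0.50 and miR-486 at -0.58), and of the other white blood cell microRNAs 6 were tested and 0 met it. None of the epithelial (5 tested), heart (2 tested) and liver (1 tested) microRNAs met it. Over the 14 serum samples, with group means taken off, miR-142-3p and miR-142-5p had a rho of -0.01 with each other, and the microRNA most like miR-223-3p was miR-128-3p (0.96).

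The changes were last compared between tissues, since a call in one tissue and none in another does not show a difference. In each tissue the change was the mean log2 CPM of the DMO group minus that of NC, and 16 differences between tissues were tested by permuting labels within tissues, 100000 times. None of the 16 passed an adjusted p below 0.05, and 4 had a raw p below 0.05. MiR-142-3p changed by -1.41 in the VSD myocardium and by 1.84 in VSD amniotic fluid, a difference of -3.25 (two-sided permutation test, p = 0.0103, adjusted p = 0.0823). MiR-142-5p changed by -2.43 in the VSD myocardium and by 0.05 in maternal serum, a difference of -2.48 (two-sided permutation test, p = 0.0101, adjusted p = 0.0823). With single libraries left out, the test used only 2000 permutations, too few to place an adjusted p near 0.05 firmly on either side. Without NC myocardium replicate 2, 3 of the 16 were under 0.05 in that coarser run. Those differences were then -3.64 (adjusted p = 0.0400) and -2.92 (adjusted p = 0.0160). That of miR-142-5p between VSD myocardium and amniotic fluid was -3.76 (adjusted p = 0.0453). For miR-223-3p and miR-150-5p, with all libraries, the adjusted p of the differences between tissues was between 0.291 and 0.693.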

How the data were processed

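The deposited tables hold raw counts of reads per mature microRNA, which the authors made from small RNA libraries (TruSeq and HiSeq for myocardium and serum, QIAseq and NovaSeq for amniotic fluid). RNA came from wax blocks of the heart, from amniotic fluid supernatant and from serum. The submitters' processing notes name bcl2fastq 2.19 and DESeq. The aligner, the microRNA annotation, the genome build and the use of molecular identifiers are not given in the sources used here. The 70 deposited columns of normalized values and the authors' means, fold changes and p-values were not used.

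The members and lists were chosen with earlier results of these data known. The named microRNAs are the 4 members, fixed lists of blood cell, heart, epithelial and liver microRNAs, and the 3 microRNAs most like each member. Counts were tested in R 4.3.3 with edgeR 4.0.16 (filterByExpr at its defaults of 10 counts per library and 15 in total, TMM, quasi-likelihood test, Benjamini-Hochberg over all microRNAs tested). Levels are TMM-scaled CPM, with 2 added as a prior for log2. Ratios used exact permutation tests over 3432 groupings. Alternatives were DESeq2 1.42.0, limma 3.58.1, library size scaling, no filter, the red cell microRNAs left out, the replicate number as a block, an adjusted p, all 3 groups in one fit or the VSD and non-VSD samples alone, other added counts and each library left out. The limma fits used log2 CPM scaled by library size, without TMM. Leaving out 3 myocardium libraries together was added after the data were seen. The scripts were tested on simulated data. Sequences are from RefSeq (GRCr8), and matplotlib 3.10.9 in Python 3.11.15 made the figures.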

Additional observations from a re-analysis of the deposited data

Results flagged for a closer look

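In 2 of the 32 sets of 7 values (each member in each group), 1 sample stood apart from the other 6 by Dixon's test, where chance gives about 1 in 20. Both concerned miR-142-5p in a VSD group. In the myocardium, VSD replicate 6 was at 462 CPM and the next highest VSD sample at 180 CPM. In amniotic fluid, VSD replicate 7 was at 1026 CPM and the next highest at 315 CPM, values that rest on 139 and 35 counts.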

How the results depend on the processing

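The median log2 change of myocardium microRNAs went from -0.05 with TMM to 0.32 with library size for VSD against NC. It went from -0.07 to 0.13 for non-VSD against NC and from 0.02 to 0.19 for VSD against non-VSD. Elsewhere the median moved by under 0.1. Counts of members called moved as follows, for VSD (2) and non-VSD (1) hearts and then for VSD (1) and non-VSD (1) fluid against NC. Limma, which was run with library size scaling and so changed the scaling as well as the test, gave 1, 0, 0 and 0. An adjusted p below 0.05 gave 0 in each. Library size scaling gave 0 in the non-VSD myocardium, and no filter gave 2 in non-VSD amniotic fluid. Same-numbered samples deviated together weakly at most (7 pairs in each of 7 comparisons, with at most 5 of 7 correlations over 0.1). The median correlation lay between -0.19 and 0.17, and 1 or 2 of 7 samples were most like their own number. The numbers were therefore not taken to pair samples. With the replicate number as a block, the replicate block fit gave 1 in the VSD myocardium and 0 in non-VSD amniotic fluid. Leaving out single libraries gave 0 to 1 in the non-VSD myocardium, 0 to 1 in VSD amniotic fluid, 1 to 3 in non-VSD amniotic fluid, and 0 to 1 for VSD against non-VSD in both tissues. It gave 0 to 3 differences between tissues (by 2000 permutations each) and 3 to 6 ratios, of 0 and 4. The cause was not tested. Signs turned only for values near 0 or of low depth. MiR-150-5p in the VSD myocardium was at 0.25 with limma and 0.27 with library size. MiR-223-3p in the non-VSD myocardium was at -0.014 with DESeq2, -0.013 with no filter and -0.0036 with all 3 groups in one fit. In VSD amniotic fluid, miR-150-5p was at -1.50 with limma and -0.55 with the replicate block, and miR-223-3p at 0.00018 with the replicate block. The difference of miR-223-3p between VSD myocardium and serum was 0.039 with library size. With single libraries left out, ranges that crossed 0 were -0.0081 to 0.27 (miR-223-3p, VSD myocardium), -0.024 to 0.082 (miR-223-3p, non-VSD myocardium), -0.61 to 0.13 and -0.35 to 0.79 (miR-223-3p and miR-150-5p, VSD amniotic fluid) and -0.15 to 0.16 (miR-142-5p, serum). For VSD against non-VSD amniotic fluid they were -1.36 to 0.0033 (miR-142-3p), -1.85 to 0.34 (miR-142-5p) and -1.17 to 0.061 (miR-150-5p). Between VSD myocardium and amniotic fluid they were -0.035 to 0.68 (miR-223-3p) and -0.085 to 1.30 (miR-150-5p), and for the ratio of miR-142-3p to miR-451-5p in the VSD myocardium -0.034 to 0.29. The depth of amniotic fluid limits miR-142-5p, which was under the filter in both comparisons with NC.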
